A study of Mus musculus with 35 samples.

Results

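The genes that build, load and tether the carriers of the secretory pathway were followed in single mouse embryonic fibroblasts (MEFs) with and without micronuclei, the small extranuclear bodies that form around chromosomes or fragments left behind at mitosis. The set was defined by gene name: the COPI coat (Copa, Copb1, Copb2, Cope, Copg1, Copg2, Copz1, Copz2 and Arcn1), the COPII coat (Sar1a, Sar1b, Sec23a, Sec23b, Sec24a to Sec24d, Sec31a and Sec16a), the ARF GTPases Arf1 to Arf6, every Tmed gene, the cargo receptors Kdelr1, Kdelr2, Kdelr3 and Lman1 with Mia3, the Sec22 proteins, and every Exoc gene. It held 53 of the 19085 gene rows of the count table.

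Proteins made at the endoplasmic reticulum (ER) leave it in COPII vesicles, whose coat is started by the GTPase SAR1, bound to cargo by SEC24 and closed by SEC31. COPI vesicles, recruited by ARF GTPases, carry escaped ER proteins and machinery back from the Golgi, with KDEL receptors picking up soluble ER residents and p24 (TMED) proteins cycling between both compartments. The exocyst tethers carriers at the plasma membrane, and in fibroblasts the pathway is best known for exporting collagen and other matrix proteins.

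All 35 cells were C57Bl/6J MEFs kept at 3% oxygen, and all had received 1 Gy of ionising radiation, so no unirradiated cell was compared. At 32 h after irradiation they were replated on membrane dishes, and at 48 h their DNA was stained so that single cells could be cut out by laser. The comparison was between 21 cells with micronuclei and 14 cells without. Each cell gave its own full-length polyA library (Smart-seq2), and the labels name no separate cultures, embryos or animals. Each group therefore counts as 1 sample, and no test between the groups was possible. The values below describe these 35 cells, numbered within their group in accession order.

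Depth differed between the groups. Reads on genes per cell ran from 57514 to 1794113 with a median of 281800 in micronucleated cells, and from 56766 to 2023111 with a median of 736715 in the others. Fibroblast markers had reads in both groups: 10 of 11 in micronucleated cells, where Lum was at 0, and 11 of 11 in the others. Their summed levels per cell were 4509 to 16148 and 5837 to 19435 CPM, which is reads on a gene scaled to a common library total. Col1a1, Col1a2, Col3a1, Vim, Thy1, Fn1 and S100a4 had 5 or more reads in at least as many cells as not in both groups, and Dcn only without micronuclei. The same held in both groups for the neural marker Tubb3 and the epithelial marker Krt19. The sums of those 2 marker lists reached 477 and 409 CPM in micronucleated cells and 259 and 239 CPM in the others. All 12 macrophage markers had reads in micronucleated cells, where their sum ran from 0 to 16622 CPM with a median of 0 and passed 100 CPM in 4 cells, against 2 of 12 markers and at most 64.1 CPM in the others. Cell 18 of the micronucleated group stood apart with 25.7% mitochondrial reads, against at most 3.81% in the other group, and held the lowest summed level of the set in its group, 3681 CPM. Cell 7 without micronuclei was the deepest library and held the highest, 14807 CPM.

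The stretches before the transcription start were examined for shared short motifs, because XBP1 and ATF6, which switch on ER genes under folding stress, bind sites built around an ACGTG core. RefSeq starts of GRCm38.p6 were found for 46 of the 53 genes, and the 250 bases before each start were searched on both strands, a gene with several starts counting once if any of its windows matched. Among members that passed the expression filter described below, 20 of 42 held ACGTG (47.6%), against 26.7% of 6490 genes passing the same filter and 18.5% of all 27025 genes with an entry. Windows of 3 members with a match are printed to show how the core lies before the start: Sar1a, the GTPase that starts the COPII coat, with 3 matches, Kdelr3, a KDEL receptor, with 2, and Sec16a, the scaffold of ER exit sites, with 1. The sequences run 5′ to 3′ on the strand of the gene, and capitals mark ACGTG or its reverse complement CACGT, which overlap in CACGTG.
Sar1a (chr10:61680035-61680284, plus strand): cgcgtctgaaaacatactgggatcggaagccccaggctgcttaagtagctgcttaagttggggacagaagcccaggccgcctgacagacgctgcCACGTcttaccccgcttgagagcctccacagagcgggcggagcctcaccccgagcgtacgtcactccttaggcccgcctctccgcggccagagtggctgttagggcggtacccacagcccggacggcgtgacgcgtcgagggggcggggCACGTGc
Kdelr3 (chr15:79516158-79516407, plus strand): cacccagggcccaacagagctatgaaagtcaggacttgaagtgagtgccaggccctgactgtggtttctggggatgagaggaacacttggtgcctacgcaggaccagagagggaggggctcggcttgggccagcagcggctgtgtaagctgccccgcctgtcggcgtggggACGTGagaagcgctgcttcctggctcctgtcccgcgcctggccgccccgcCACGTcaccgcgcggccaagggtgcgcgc
Sec16a (chr2:26445217-26445466, minus strand): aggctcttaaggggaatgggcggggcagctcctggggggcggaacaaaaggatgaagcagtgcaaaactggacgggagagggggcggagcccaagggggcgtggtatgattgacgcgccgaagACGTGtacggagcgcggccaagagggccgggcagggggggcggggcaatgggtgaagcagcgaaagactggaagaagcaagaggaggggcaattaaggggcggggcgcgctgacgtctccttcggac
Each window ends before the first base of its RefSeq transcript. The full ER stress response element, which joins a CCAAT box to a CCACG end, matched in 0 of 46 members and in 0.13% of all genes. The cyclic AMP response element TGACGTCA matched 1 of 42 measured members (2.38%, against 3.41% of measured genes). CCAAT stood in 40.5% against 40.8%, and CCGGAAG, the core of Ets factor sites, in 16.7% against 17.8%. A match is a string of letters in a window and shows no binding.

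The set was well detected. In micronucleated cells 16 to 48 members had at least 5 reads, with a median of 37, and in the others 19 to 44, with a median of 32. With 119337 reads drawn from each of the 17 and 13 cells deep enough, the medians were 34 and 28, so the higher number lay with the more shallowly sequenced group. Genes detected per cell moved the same way, with medians of 6812 and 6082, and the part of that in the member counts was not tested. The summed level of the set per cell ran from 3681 to 10119 CPM with a median of 8363 in micronucleated cells, and from 3846 to 14807 CPM with a median of 8099 in the others, so the groups overlapped almost completely.

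**Figure D1:**
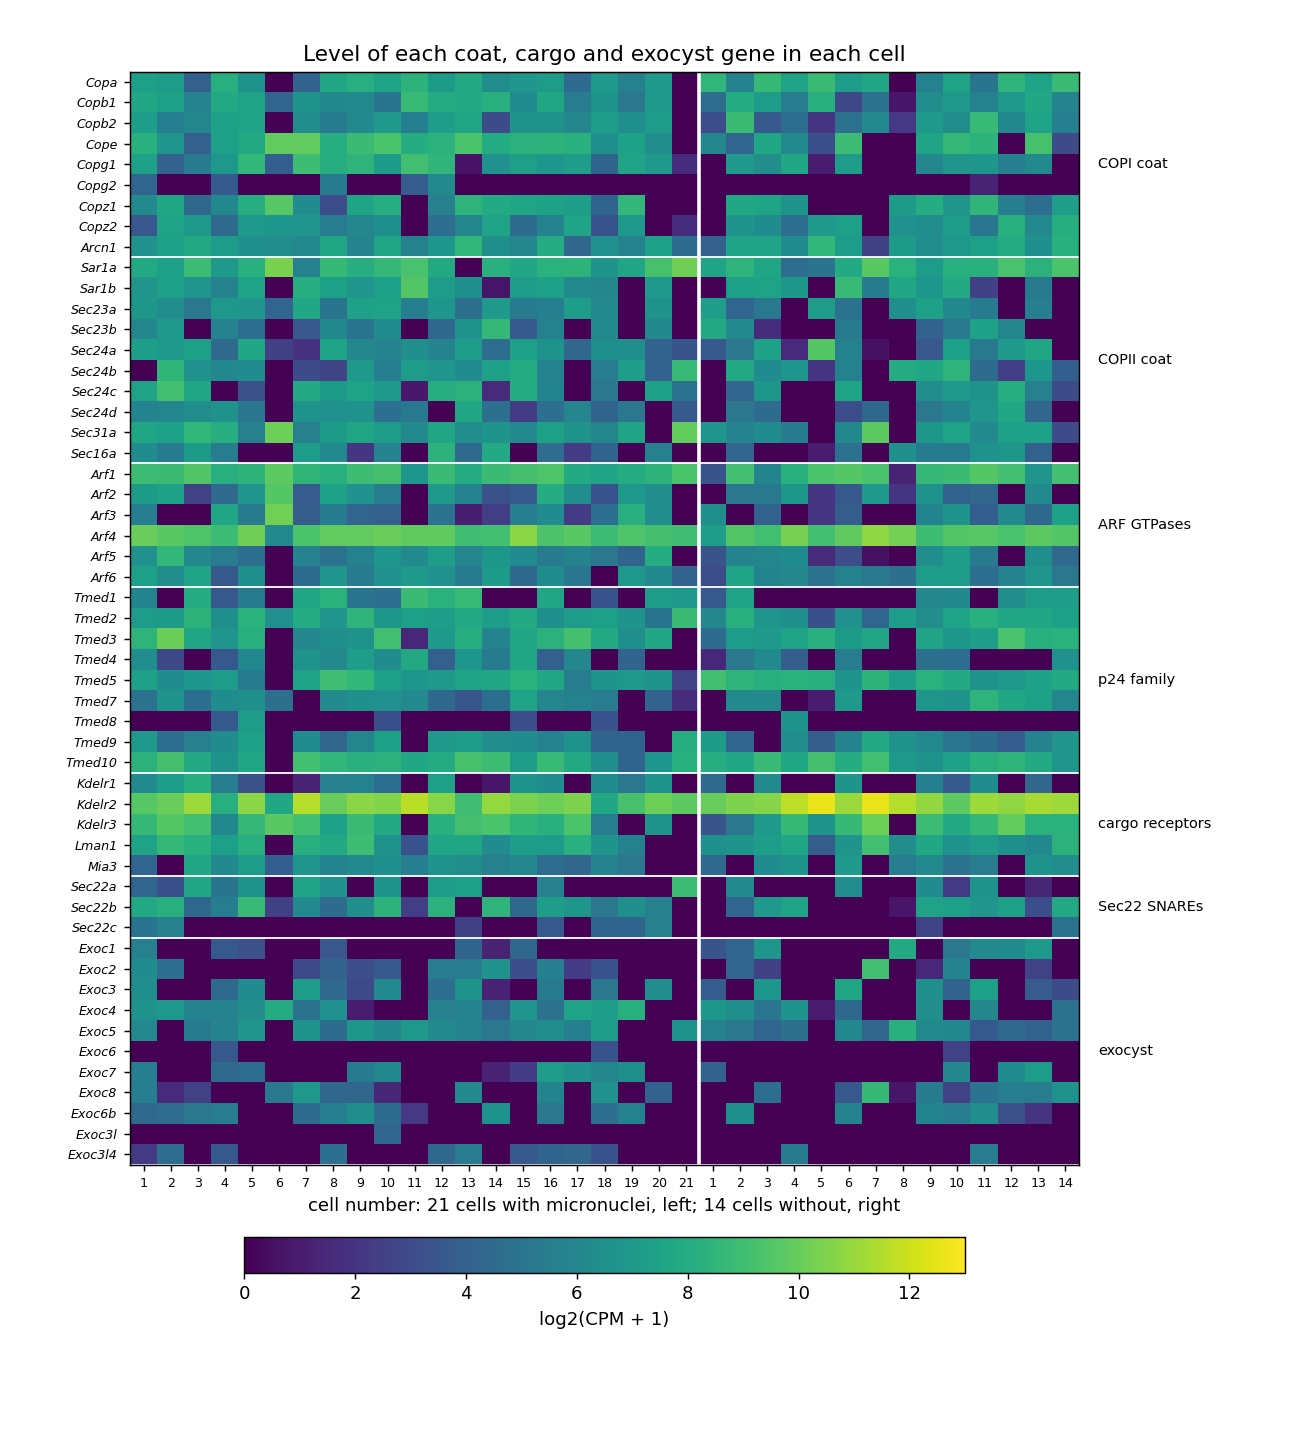
Level of each member (rows, ordered by role) in each of the 35 cells (columns, by group), shown as log2(CPM + 1) in colour. Kdelr2 and Arf4 were read in every cell of both groups, while most exocyst genes were at 0 in several cells of each.

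Reads were summed over the cells of each group and compared as a log2 ratio, log2 of (CPM with micronuclei + 1) over (CPM without + 1), so that positive values are higher in micronucleated cells. A gene counted as measured when its summed level over the 35 cells reached 5 CPM and at least 5 cells had 5 or more reads, which 48 of the 53 members and 8390 genes met. Because the filter was applied across both groups together, the counts that follow describe the 48 and not all members. Of the 48, 33 had a ratio above 0 (68.8%, against 56% of all measured genes) and the median ratio was 0.31, against 0.15 for all measured genes. At least 2-fold higher in micronucleated cells were 11 of 48 (22.9%), and the share over all measured genes was 22.9%. At least 2-fold lower were 3 of 48 (6.25%), against 14.7% of all measured genes. In summed reads the share of members past 2-fold higher equalled the background, and the share past 2-fold lower was below it. By the mean of log2(CPM + 1) over cells neither statement held: 17 members were at least 2-fold higher, against 21.5% of all measured genes, and 3 at least 2-fold lower, against 5.28%.

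The members at least 2-fold higher in summed reads were Copb1, Cope, Copg1, Sec23b, Sec24c, Sec24d, Sec16a, Arf5, Tmed1, Tmed4 and Sec22a. Those at least 2-fold lower in summed reads were Exoc1, Exoc2 and Exoc8. A sign was called held when it stayed the same with every cell given equal weight and whichever single cell was left out. The 11 higher members all held their sign, and over all measured genes 1697 of the 1925 at least 2-fold higher did. As shares of all genes measured, 22.9% of the members and 20.2% of all genes were at least 2-fold higher and held. Among the 3 lower members only Exoc1 held its sign, against 903 of 1236 over all measured genes. The shares at least 2-fold lower and held were 2.08% of the measured members and 10.8% of all measured genes. Giving every cell equal weight left 8 members at least 2-fold higher (15.7% of all measured genes), of which Copg1, Tmed1, Tmed4 and Sec22a were among the 11 and Arf2, Arf3, Kdelr1 and Exoc4 were not. Size factors per cell gave 8 higher and 4 lower, with 15.4% and 12.1% of all measured genes. Without the 4 cells over 100 CPM of macrophage markers, and without the 6 cells that had fewer than 4000 genes or a mitochondrial share above 9%, the counts were again 11 higher and 3 lower (23.3% and 15.6% of all measured genes without the former cells, 23.6% and 14.5% without the latter). Other scalings moved the median of all measured genes from 0.15 to between 0.01 and 0.30, so a ratio of 0.15 in summed reads is the middle of the table. Signs held for 23 members above 0 (47.9%, against 33.5% of all measured genes) and 6 below (12.5%, against 20.1%). With equal weight 34 were above 0 (70.8%, against 52.8% of all measured genes) and 3 at least 2-fold lower (6.25%, against 10.5%), and by the mean of log2(CPM + 1) over cells 34 were above 0 (70.8%, against 63.9%). Without cell 8 lacking micronuclei 5 members were at least 2-fold lower (13.9% of all measured genes), and without cell 7 of that group the median ratio of the members was 0.48. Over the 48 members, 19 changed sign when some single cell was left out, and 9 changed sign with equal weight.

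**Figure D2:**
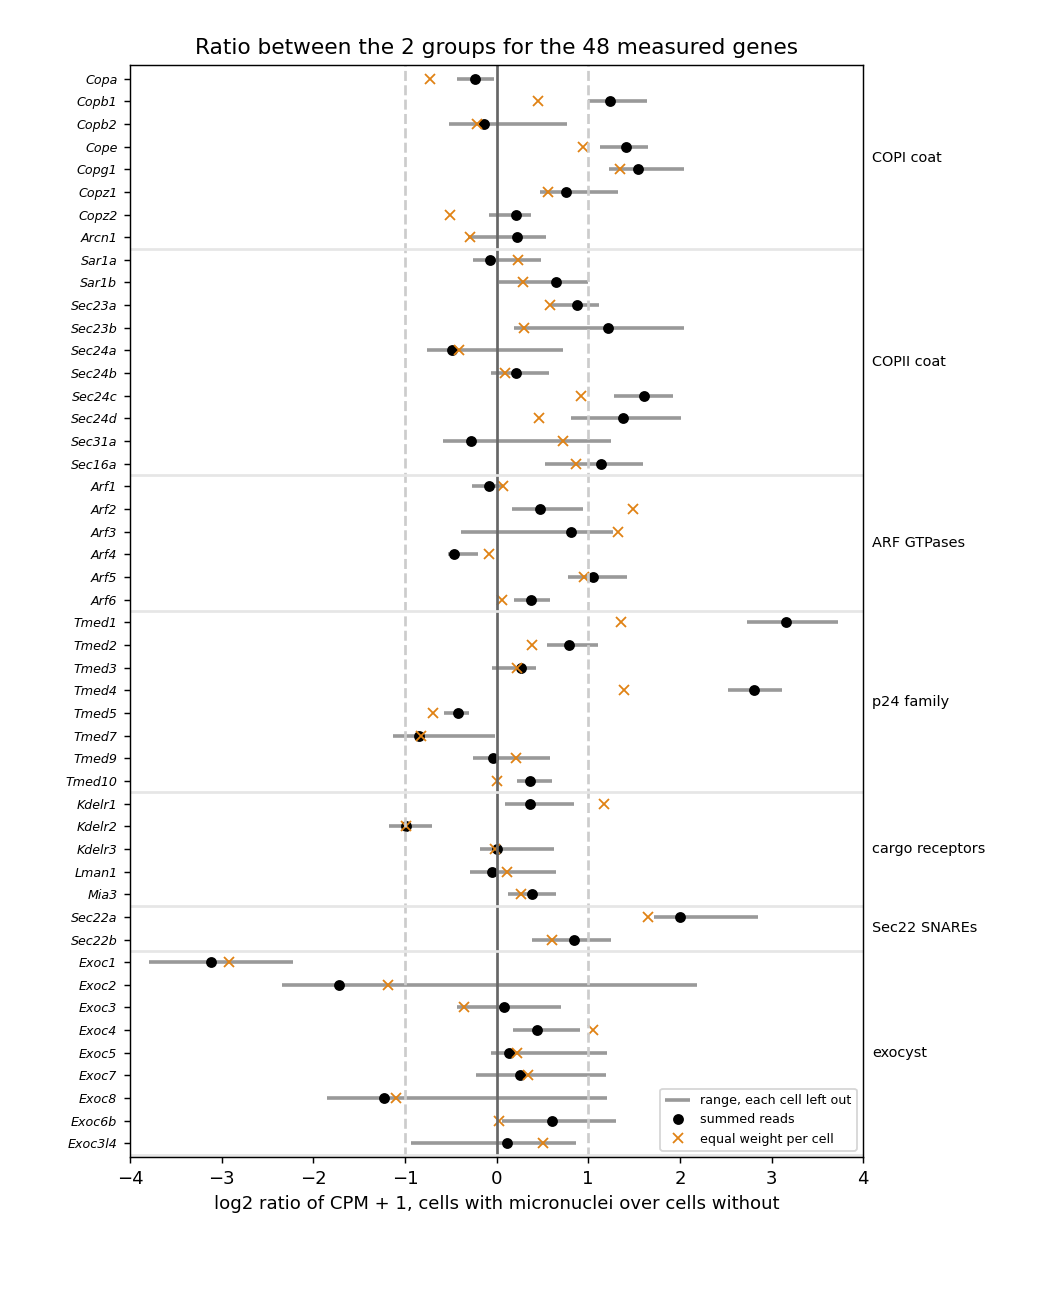
Log2 ratio of summed CPM (micronuclei over no micronuclei) for each measured member, with the range over leaving out each cell in turn and the equal-weight value. Tmed1 and Tmed4 lie farthest to the right and Exoc1 farthest to the left, and the ranges of Exoc2 and Exoc8 cross 0.

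The most abundant member was Kdelr2, the KDEL receptor that returns chaperones such as BiP from the Golgi to the ER (GRCm38 chromosome 5, 143403838 to 143421901, plus strand). Per kilobase of its principal transcript it reached 908 CPM in micronucleated cells and 1803 CPM in the others, the first of the 48 measured members in both. Single micronucleated cells ran from 217 to 3267 CPM with a median of 1139, and cells without micronuclei from 871 to 6373 CPM with a median of 2140. The groups overlapped, but 3 cells without micronuclei lay above the highest micronucleated cell, and every cell of both groups had at least 5 reads. Summed reads gave 1661 CPM (95% Poisson interval 1637 to 1685) with and 3298 CPM (3265 to 3331) without micronuclei, a log2 ratio of −0.99, just inside the 2-fold limit. With equal weight the ratio was also −0.99, and leaving out 1 cell moved it between −1.17, without cell 7 of the micronucleated group, and −0.70, without cell 7 of the other, which carried 21.9% of the reads. Scaling by trimmed means (TMM) or by size factors per cell gave −1.13, past 2-fold. Kdelr2 also followed depth: over the 35 cells log2 level and log2 depth had a Pearson r of 0.52 and a Spearman rho of 0.52, and r was 0.45 within the micronucleated cells and 0.48 within the others. The points share libraries, depth was lower in the micronucleated group, and the part of depth in the ratio was not tested. Among cells thinned to equal depth the ratio was −0.85, and without the cells of few genes or a high mitochondrial share it was −0.83.

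The other KDEL receptors had ratios at or above 0 in summed reads. Kdelr3 (chromosome 15, 79516411 to 79527739, plus strand) ran from 0 to 808 CPM per cell with a median of 366 in micronucleated cells, and from 0 to 1129 CPM with a median of 315 in the others. The groups overlapped over almost their whole range, and summed reads gave 427 and 426 CPM, a log2 ratio of 0.01, which became 0.62 without cell 7 of the group lacking micronuclei. Kdelr1 was low, at 0 to 270 CPM with a median of 43.4 against 0 to 107 CPM with a median of 5.92, and its log2 ratio was 0.37 in summed reads and 1.17 with equal weight. As a share of the family per transcript length, Kdelr2 made up 73.8% with and 85.0% without micronuclei, and leaving out any 1 cell kept the first between 69.1% and 77.1% and the second between 82.9% and 87.3%. Kdelr3 made up 24.6% and 14.2%. Kdelr2 was the largest of the 3 receptors in 19 of 21 and 14 of 14 cells. These family shares come from summed reads, in which deep libraries weigh most. Taken cell by cell, Kdelr2 had a median share of 70.5% in micronucleated cells, from 17.5% to 100%, and of 84.8% in the others, from 59.3% to 100%.

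The remaining cargo receptors were close in summed reads. Lman1 (ERGIC-53), a lectin that carries glycoproteins such as coagulation factors out of the ER, had 192 CPM with and 199 CPM without micronuclei in summed reads, and its medians per cell were 163 and 105 CPM. Its sum without micronuclei leaned on cell 7, with 1132 reads against at most 317 in any other cell of that group. Mia3 (TANGO1), which helps pack collagen into COPII carriers, had 64.8 and 49.2 CPM, with medians of 52.1 and 44.6 CPM. Summed over Kdelr1, Kdelr2, Kdelr3, Lman1 and Mia3, cells with micronuclei ran from 495 to 3917 CPM with a median of 1962 and cells without from 1159 to 7815 CPM with a median of 2886. In this sum 5 micronucleated cells lay below the lowest cell of the other group and 3 cells of the other group lay above the highest micronucleated cell, and Kdelr2 made up most of it. The 5 low cells were cells 4 and 18, with 9.57% and 25.7% mitochondrial reads, cells 6 and 21, with 2391 and 3097 genes, and cell 19, with 57514 reads, the shallowest of its group. Without the 6 cells that had fewer than 4000 genes or a mitochondrial share above 9%, the medians were 2327 and 2886 CPM, with 1 cell below and 2 above. The sum followed depth, with r of 0.58 and rho of 0.54 over the 35 cells, and had r of −0.50 and rho of −0.29 with the mitochondrial share, r being −0.11 without the 2 cells farthest from the median sum. The part of depth and cell quality in the difference was not tested.

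**Figure D3:**
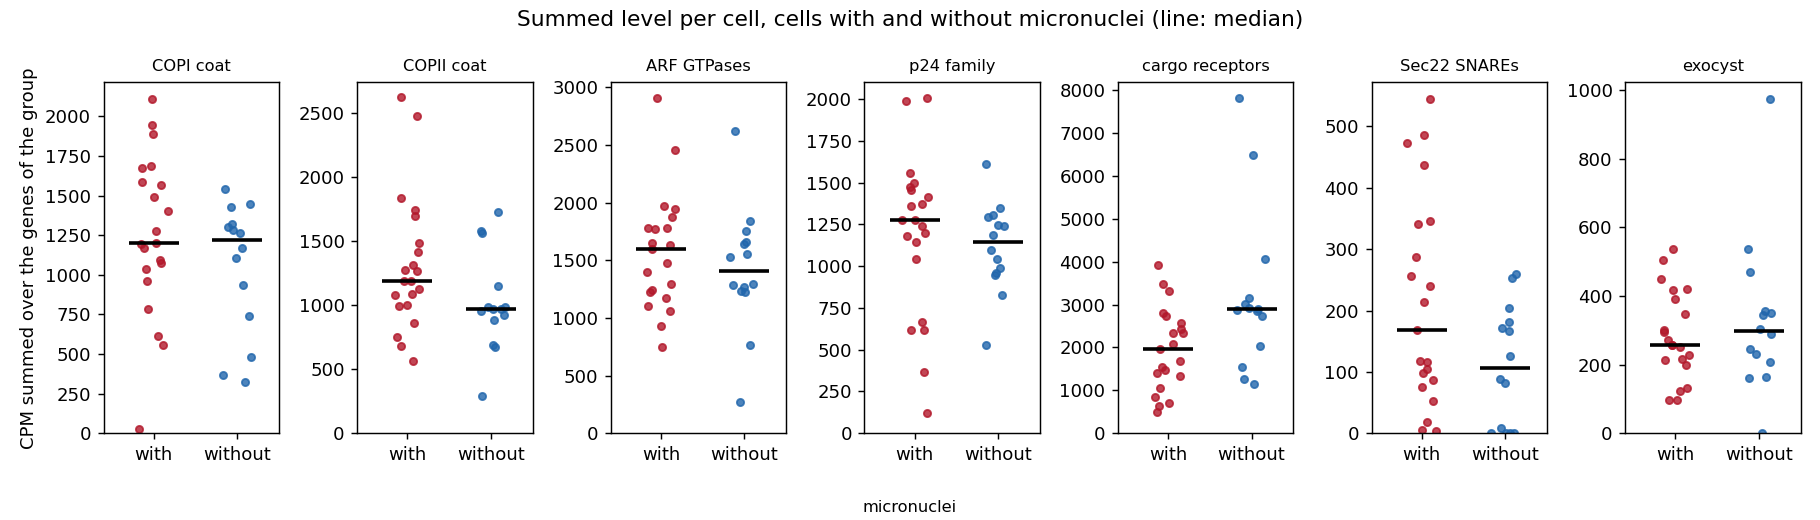
Summed CPM of each role group in each cell (points), by group, with the median as a line. The cargo receptor sum lies lower in micronucleated cells, with medians of 1962 and 2886 CPM. In the COPI sum 7 micronucleated cells lie above all cells of the other group and 1 below, with medians of 1204 and 1218 CPM. In the Sec22 sum 7 lie above, with medians of 168 and 107 CPM.

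Among the p24 proteins the members split by direction. Tmed1, a p24 subunit of the gamma class, had the largest ratio of the 48 (chromosome 9, 21507553 to 21510252, minus strand). Micronucleated cells ran from 0 to 467 CPM with a median of 41.9, and cells without from 0 to 176 CPM with a median of 5.56. In 7 micronucleated cells Tmed1 exceeded every cell without micronuclei, while 6 and 7 cells of the 2 groups had no read. Summed reads gave 191 CPM (183 to 200) against 20.6 CPM (18.1 to 23.4), a log2 ratio of 3.16 that stayed between 2.73 and 3.73 whichever cell was left out. Cell 13 with micronuclei carried 33.8% of the reads, and with equal weight the ratio was 1.35. Per transcript length Tmed1 ranked 9th of the measured members in micronucleated cells, at 139 CPM per kilobase, and 34th in the others, at 14.9. It shares 207 exon bases with Dnm2 on the opposite strand, and Smart-seq2 libraries carry no strand, so reads of the pair cannot be told apart there.

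Tmed4, another p24 protein (chromosome 11, 6270369 to 6274870, minus strand), differed in the same direction. It ran from 0 to 237 CPM with a median of 40.9 in micronucleated cells, and from 0 to 95.8 CPM with a median of 7.52 in the others. The gene reached 5 reads in 12 of 21 and 6 of 14 cells, and 5 micronucleated cells lay above the other group's highest. Summed reads gave 91.8 and 12.2 CPM, a log2 ratio of 2.81 that stayed between 2.52 and 3.11 over left-out cells and was 1.39 with equal weight.

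The abundant p24 genes differed less. Tmed10, the delta-class subunit found in most p24 complexes, ran from 0 to 589 CPM with a median of 259 against 96.7 to 571 CPM with a median of 254, and summed reads gave 398 and 310 CPM. Tmed2, its usual partner, had medians of 149 and 128 CPM and a log2 ratio of 0.79, and Tmed3 medians of 201 and 166 CPM and a ratio of 0.27. These overlapped broadly between groups. Tmed5 and Tmed7 went the other way, with log2 ratios of −0.42 and −0.85. Tmed5 was read in every cell without micronuclei, at 102 to 536 CPM with a median of 269, against 0 to 508 CPM with a median of 130. The ratio of Tmed7 shrank to −0.02 without cell 11 of the group lacking micronuclei, which carried 33.3% of its reads, and Tmed7 shares 838 exon bases with Ticam2 on the same strand. Tmed9 was level in summed reads, at 87.4 and 89.7 CPM. Cell 7 lacking micronuclei held 486 of its reads, against at most 142 in any other cell of that group, and with equal weight the log2 ratio was 0.21. Tmed8 was not measured, with 26 and 152 reads, of which 85.4% came from cell 4 without micronuclei. Tmed1 made up 16.3% of all Tmed reads per length with micronuclei and 2.5% without, and Tmed10 made up 31.6% and 34.5%. The ranking depended on the length used: with the union of all exons as length, Tmed1 led in micronucleated cells at 28.2%, with Tmed10 at 15.4%, and Tmed3 led in the others at 23.8%, with Tmed1 at 5.43%. Cell by cell, Tmed3 was the largest in 10 of 21 micronucleated cells and Tmed10 in 6, against 4 and 8 of the 14 others.

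Of the 8 measured COPI coat genes 6 had ratios above 0 and 2 below, while 56% of all measured genes were above 0. Their median was 0.49 in summed reads and 0.12 with equal weight, against 0.15 and 0.05 for all measured genes. The median summed level per cell was 1204 CPM with and 1218 CPM without micronuclei. In this sum 7 micronucleated cells lay above and 1 below every cell of the other group. Copg1, the gamma subunit (chromosome 6, 87887814 to 87913595, plus strand), ran from 0.557 to 537 CPM with a median of 136 in micronucleated cells, and from 0 to 215 CPM with a median of 68.5 in the others. There were 6 micronucleated cells above the highest of the other group, and 4 cells without micronuclei had no read. Summed reads gave 212 CPM (204 to 221) and 72.2 CPM (67.4 to 77.2), a log2 ratio of 1.54 that stayed between 1.23 and 2.04 over left-out cells and was 1.35 with equal weight. Cope, the epsilon subunit (chromosome 8, 70302518 to 70312993, plus strand), ran from 0 to 940 CPM with a median of 275 against 0 to 601 CPM with a median of 64.9. Detection with 5 or more reads reached 19 of 21 and 9 of 14 cells, and 4 micronucleated cells lay above the other group. Its log2 ratio was 1.41 in summed reads, 441 against 166 CPM, between 1.13 and 1.65 over left-out cells, and 0.94 with equal weight.

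Copb1, the beta subunit, had medians of 104 and 69.4 CPM and a log2 ratio of 1.24. It fell short of 2-fold without micronucleated cell 11, at 0.996, and with equal weight, at 0.45. The other large subunits had lower ratios. Copa, the alpha subunit, ran from 0 to 344 CPM with a median of 130 against 0 to 465 CPM with a median of 185, with a log2 ratio of −0.23. Copb2, the beta prime subunit, had 88.1 and 96.7 CPM and Arcn1, the delta subunit, 147 and 126 CPM, and both changed sign over left-out cells. The subunits of this complex did not show a common ratio, which ran from −0.23 for Copa to 1.54 for Copg1. Copa and Copg1 each share exon bases with antisense genes, where unstranded reads cannot be assigned.

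The zeta subunit is made by Copz1 and Copz2. Copz1 ran from 0 to 776 CPM with a median of 157 against 0 to 367 CPM with a median of 107, and Copz2 from 0 to 195 CPM with a median of 59.1 against 0 to 292 CPM with a median of 89.1. Per transcript length Copz2 made up 45.5% of the pair in micronucleated cells and 55% in the others, and the ranges over left-out cells, 41.9% to 51.8% and 50.7% to 66.0%, overlapped. Copg2, the paralog of Copg1, was not measured, with 51 reads in micronucleated cells and 2 in the others, and it shares 912 exon bases with Mest on the opposite strand.

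Of the 10 COPII coat genes, all measured, 7 had ratios above 0 and 3 below, while 56% of all measured genes were above 0. Their median was 0.76 in summed reads and 0.38 with equal weight, against 0.15 and 0.05 for all measured genes. The median summed level per cell was 1186 CPM with and 966 CPM without micronuclei, against standard deviations of 528 and 384 CPM between cells, so the groups were not separated. The 4 members past 2-fold in summed reads were Sec24c, Sec24d, Sec23b and Sec16a, all higher, and with equal weight none of the 10 was. Over all measured genes 22.9% were at least 2-fold higher in summed reads and 15.7% with equal weight. Sec24c, a cargo-binding subunit (chromosome 14, 20674308 to 20694852, plus strand), ran from 0 to 542 CPM with a median of 124 against 0 to 276 CPM with a median of 33.5. Only 2 micronucleated cells lay above the other group, and the log2 ratio was 1.61, between 1.28 and 1.92 over left-out cells and 0.92 with equal weight.

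Sec24d, a SEC24 paralog known for its part in collagen export, ran from 0 to 211 CPM with a median of 34.8 against 0 to 213 CPM with a median of 19.4. Its log2 ratio of 1.38 rested on few cells: it was 0.81 without micronucleated cell 13, 2.01 without cell 11 lacking micronuclei, and 0.46 with equal weight. Sec23b, the GTPase-activating subunit that partners SEC24, had medians of 31.5 and 9.18 CPM. Its log2 ratio of 1.21 was 0.19 without micronucleated cell 14, which carried 40.0% of the reads, 0.94 and 2.05 when cells 7 and 11 lacking micronuclei were left out, and 0.30 with equal weight. Sec16a, whose promoter window is printed above, ran from 0 to 329 CPM with a median of 23.7 against 0 to 117 CPM with a median of 16.5. Its log2 ratio of 1.14 was 0.53 without micronucleated cell 14 and 0.93 without micronucleated cell 7. Leaving out cell 4 or cell 7 lacking micronuclei gave 0.95 and 0.88. At least 2-fold differences of Sec23b, Sec24d and Sec16a thus depended on single cells.

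Sec24a and Sec24b, the other closely related SEC24 pair, had log2 ratios of −0.49 and 0.22. That of Sec24a was 0.73 without cell 5 of the group lacking micronuclei, which carried 36.4% of its reads, and its medians per cell, 86.8 CPM with and 36 CPM without, ran opposite to the summed ratio. As shares of the 4 SEC24 genes per transcript length, Sec24c made up 40.0% with and 21.2% without micronuclei (36.6% to 42.7% and 17.1% to 26% over left-out cells), and Sec24a 13% and 30.05%, the latter 14.3% without cell 5. Sec23a had 101 and 54.3 CPM in summed reads, with medians of 82.3 and 38.9 CPM. It made up 42.9% and 48.8% of the SEC23 pair per transcript length. Over left-out cells these shares ran from 35.2% to 59.7% and from 42.4% to 64.1%, so they overlapped. With the union of all exons as length Sec23a led in both groups, at 59.2% and 64.7%. Cell by cell its median share was 60.1% and 54.5%, and it was the larger in 13 of 19 and 6 of 11 cells with reads of the pair.

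The GTPase that starts the coat was near level in summed reads in 1 of its 2 genes. Sar1a, with 3 ACGTG matches in its window, ran from 0 to 1339 CPM with a median of 285 against 23.7 to 805 CPM with a median of 291, and its log2 ratio was −0.07. That value leaned on cell 7 lacking micronuclei, with 1629 reads against at most 446 in any other cell of its group. The ratio of Sar1a was 0.23 with equal weight and −0.50 without the cells of few genes or a high mitochondrial share. Sar1b ran from 0 to 728 CPM with a median of 110 against 0 to 441 CPM with a median of 77.4, and its log2 ratio of 0.65 was 0.02 without micronucleated cell 11, which carried 25.3% of the reads. Sec31a, the outer coat, had a log2 ratio of −0.28 in summed reads that was 1.25 without cell 7 of the group lacking micronuclei (40.1% of the reads) and 0.72 with equal weight. Its medians per cell were 147 and 74.9 CPM, and 20 of 21 and 10 of 14 cells had 5 or more reads.

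**Figure D4:**
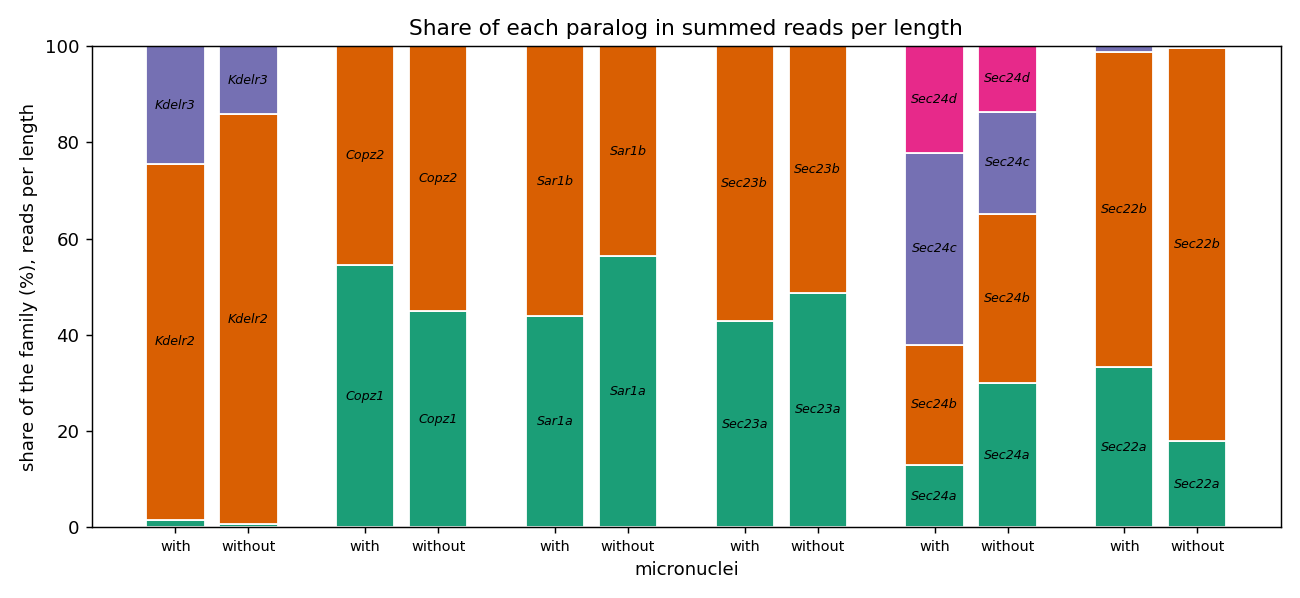
Share of each paralog in its family (percent of reads per transcript length), as stacked bars for cells with and without micronuclei, in which the unlabelled slivers are Kdelr1 and Sec22c. Kdelr2 takes 73.8% and 85.0% of its family and Sec24c 40.0% and 21.2%.

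The ARF GTPases were led by Arf4 (chromosome 14, 26638074 to 26665084, plus strand) and Arf1, which recruit COPI and clathrin adaptors at the Golgi. Arf4 ran from 72.6 to 1720 CPM with a median of 678 against 154 to 1849 CPM with a median of 741, and Arf1 from 114 to 890 CPM with a median of 458 against 1.41 to 773 CPM with a median of 506. Both overlapped throughout, with log2 ratios of −0.47 and −0.08, and per transcript length Arf4 was second of all measured members in both groups, at 341 and 473 CPM per kilobase. The less abundant Arf5 had the 1 ratio past 2-fold in this family, 82.6 against 39.4 CPM or 1.05 on the log2 scale. That call was lost without micronucleated cells 2 (0.78) or 14 (0.95), without cells 5 (0.93), 6 (0.97), 7 (0.78) or 8 (0.87) lacking micronuclei, and with equal weight (0.95). Leaving out cell 1 lacking micronuclei also ended it, by less than 0.01. Arf2 and Arf3 had ratios of 0.48 and 0.81 in summed reads and 1.49 and 1.32 with equal weight, and both were highest in micronucleated cell 6, at 753 and 1194 CPM. Without that cell the ratio of Arf3 was −0.39. Cell 6 had the fewest genes, 2391, and was among the 4 cells with over 100 CPM of macrophage markers. Arf6, which acts at the plasma membrane, had 73.6 and 56.4 CPM.

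The SNARE proteins of the Sec22 family act in fusion between ER and Golgi. Sec22b, the member with an established role as an R-SNARE, had medians of 71.2 and 62.6 CPM and a log2 ratio of 0.84, and 6 micronucleated cells lay above the highest of the other group. Sec22a (chromosome 16, 35311131 to 35363918, minus strand) ran from 0 to 487 CPM with a median of 17.7 against 0 to 96.4 CPM with a median of 0. It had at least 5 reads in 10 of 21 cells (47.6%, 95% Clopper-Pearson interval 25.7% to 70.2%) and 3 of 14 cells (21.4%, 4.66% to 50.8%). The log2 ratio was 2.00 in summed reads, 1.72 to 2.85 over left-out cells, the latter without cell 11 lacking micronuclei, and 1.65 with equal weight, and 7 micronucleated cells exceeded the other group. Sec22c was not measured, with 53 and 7 reads.

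In summed reads the exocyst was the 1 role group with members at least 2-fold lower in micronucleated cells. They were 3 of its 9 measured members, against 14.7% of all measured genes. None of its members was at least 2-fold higher in summed reads, as in the cargo receptors, against 22.9% of all measured genes. By the mean of log2(CPM + 1) over cells neither held: Tmed5 (−1.23) and Kdelr2 (−1.09) were also past 2-fold lower, and Exoc4 (1.46) and Exoc3l4 (1.15) past 2-fold higher. Exoc1 (chromosome 5, 76529311 to 76570294, plus strand) had 0 reads in 14 of 21 micronucleated and 6 of 14 other cells. Micronucleated cells ran from 0 to 49.7 CPM with a median of 0, and the others from 0 to 233 CPM with a median of 13.4, with 5 of them above every micronucleated cell. Summed reads gave 5.23 CPM (3.97 to 6.76) and 53.1 CPM (49.02 to 57.5), a log2 ratio of −3.12, the lowest of the 48. It was −2.22 without cell 8 of the group lacking micronuclei, which carried 49.04% of the reads, −3.79 without micronucleated cell 13, and −2.92 with equal weight. At least 5 reads were seen in 3 of 21 cells (14.3%, 3.05% to 36.3%) and 7 of 14 cells (50.0%, 23.04% to 77.0%).

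Exoc2 and Exoc8, a pair of other subunits, rested on 1 cell. Exoc2 had a log2 ratio of −1.72, but cell 7 without micronuclei carried 74.3% of its reads and the ratio was 2.19 without it. By detection Exoc2 went the other way, with at least 5 reads in 10 of 21 micronucleated and 2 of 14 other cells. Exoc8 had a log2 ratio of −1.23 that was 1.20 without the same cell, which carried 61.1% of its reads, and −1.85 without micronucleated cell 7. The remaining subunits were close to level in summed reads: Exoc3 at 47.3 and 44.5 CPM, Exoc5 at 69.6 and 63.1 CPM and Exoc7 at 18.2 and 15.2 CPM. Exoc3l4, a relative of Exoc3, was as low, at 11.1 and 10.2 CPM. The sums of Exoc3 and Exoc5 also leaned on single cells. In the group lacking micronuclei, cell 8 held 431 reads of Exoc5, against at most 56 in any other cell. Cell 11 of that group held 224 reads of Exoc3, against at most 164. With equal weight the log2 ratio was −0.35 for Exoc3 and 0.22 for Exoc5. Exoc4 reached 5 reads in 16 of 21 micronucleated and 7 of 14 other cells, and its log2 ratio was 0.44 in summed reads and 1.05 with equal weight. Exoc6b, at 31.2 and 20.2 CPM, supplied 99.1% and 97.4% of the reads per length of the EXOC6 pair, and Exoc6 itself had 2 and 4 reads. Exoc3l was read only in micronucleated cell 10, with 11 reads.

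**Figure D5:**
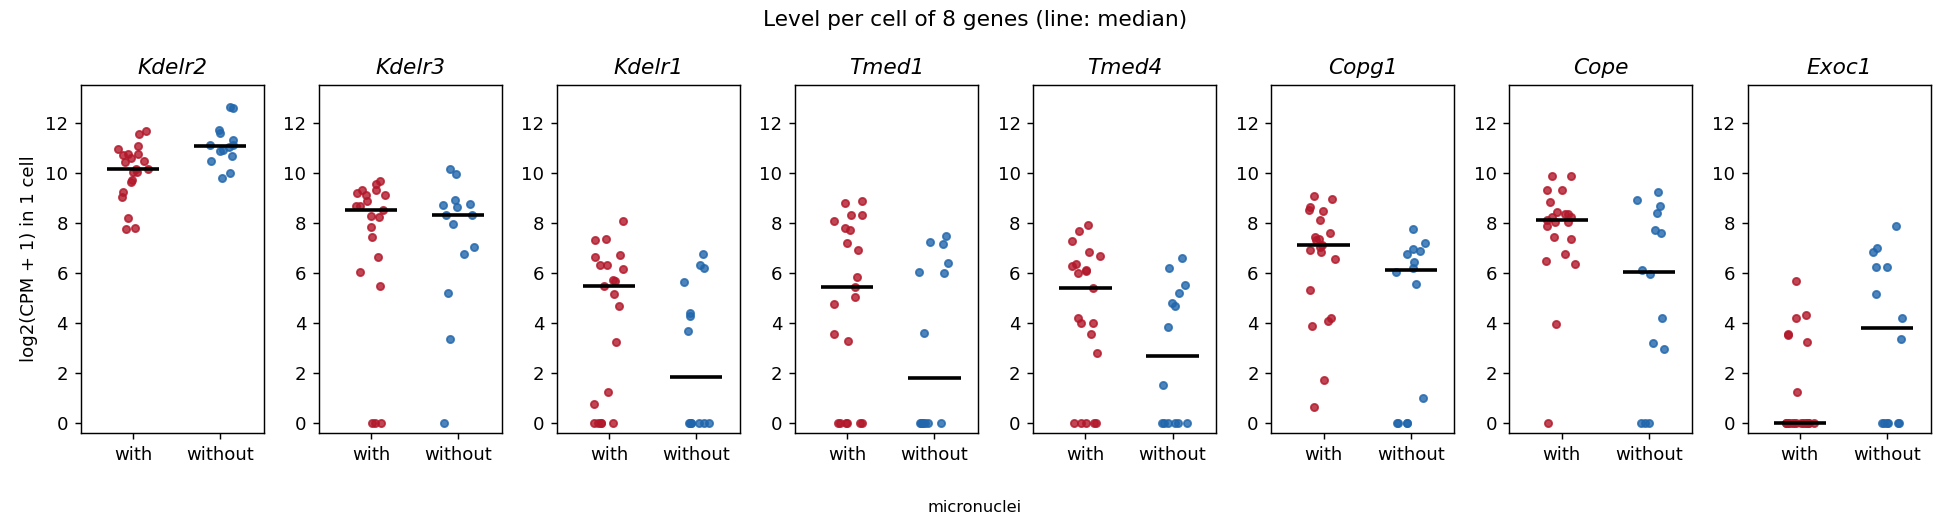
Level of 8 members in each cell (points) as log2(CPM + 1), by group, with the median as a line. Kdelr2 shows 3 cells without micronuclei above all micronucleated cells, Tmed1 shows 7 micronucleated cells above all others, and Exoc1 is at 0 in 14 of the 21 micronucleated cells.

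The role groups varied between cells without a common direction. The summed p24 level moved with summed Col1a1, Col1a2 and Col3a1 across the 35 cells (Pearson r 0.72, Spearman rho 0.52 on log2 values), and r was 0.41 without the 2 cells farthest from the median p24 level. The summed level of all members moved against the mitochondrial share, with r of −0.59 and rho of −0.53, but r was −0.78 within micronucleated cells and −0.11 within the others, so the pooled value came mainly from the former. With depth it had r of 0.51 and rho of 0.41, and r of 0.64 and 0.30 within the groups. These are descriptions over cells that share a library for both measures.

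Other genes of the same pathway were read from a list of 70, of which 68 were in the table and 62 were measured. Of these 38 had ratios above 0 and 24 below, while 56% of all measured genes were above 0. Their median was 0.33, against 0.31 for the coat, cargo and exocyst genes and 0.15 for all measured genes. With equal weight the median was 0.16, against 0.05 for all measured genes. At least 2-fold higher were 15 and at least 2-fold lower 6, of which 14 and 4 held their sign; over all measured genes 22.9% were at least 2-fold higher and 14.7% at least 2-fold lower. Those higher included Rab8a, a GTPase of Golgi-to-surface traffic, at 173 against 66.5 CPM (log2 ratio 1.36, 1.46 with equal weight), Arfgap1, which ends the ARF1 cycle on COPI (1.55, 0.92 with equal weight), and Stx18, an ER SNARE (2.23, 1.60 with equal weight). Those lower included Preb (SEC12), the exchange factor of SAR1, at −2.61 (−1.35 with equal weight). Cell 7 without micronuclei carried 73.8% of the reads of Preb. Also lower were the SNARE Ykt6 at −1.38 (−0.74 with equal weight) and the Golgi tether Cog2 at −1.86 (−1.75 with equal weight). Cell 5 without micronuclei carried 24.9% of the reads of Ykt6 and 40.9% of those of Cog2. Surf4, an abundant cargo receptor, was near level at 767 and 626 CPM.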

How the data were processed

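The deposited values are whole-number read counts per gene for 35 cells. Per the submitters' processing notes, alignment used STAR against GRCm38.p5 and Rsubread did the counting, and cells with over 10% spike-in reads, under 2000 genes or under 40000 counts had been left out. Versions and the strand setting were not given in the sources used here. Smart-seq2 does not mark strand, and counts are uncertain for members that share exon bases with another gene: Copa, Copg1, Copg2, Sec23a, Sec24c, Arf4, Arf5, Arf6, Tmed1, Tmed5, Tmed7, Tmed10, Kdelr3, Exoc5, Exoc7, Exoc3l and Exoc3l4.

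From the deposited counts, CPM was computed on the total of the 19085 gene rows, with 62 spike-in rows left out. Group sums were 11084425 reads with and 11612303 without micronuclei. Exact 95% Poisson intervals of levels hold counting error alone, because these reads carry no molecular identifiers and repeat the same molecules. Clopper-Pearson intervals of shares of cells hold the error of counting so few cells and no spread between cultures, so they do not compare the groups. No p-value was computed, and the fixed fold of 2 stands in for a test. Lengths are those of the transcript with the top principal mark in GENCODE annotation of GRCm38, where all 53 symbols were found. Copg2, Sec24a, Sec31a, Sec16a, Mia3, Exoc1 and Exoc7 had no transcript with that mark, and their longest coding transcript was used. Members with held calls, the most abundant of each role, paralogs and the 3 largest and 3 smallest ratios were described cell by cell. The members and lists were chosen with earlier results of these data known. Alternatives were equal weight per cell, mean log2 CPM, TMM factors, size factors per cell, totals without mitochondrial reads, 0.1 or 5 CPM added, thinning, other filters and leaving out cells. Leaving out cells with macrophage markers, leaving out cells of few genes or a high mitochondrial share in the role sums, and using the union of exons as length were chosen after seeing the data. Computations were tested on simulated data. The TMM factors, 1.05 with and 0.952 without micronuclei, came from edgeR 4.0.16 and the size factors from scran 1.30.0, both in R 4.3.3. All else ran in Python 3.11.15 with scipy 1.17.1, pandas 2.3.3, numpy 2.4.6 and matplotlib 3.10.9. There were 0 columns from other samples.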

Additional observations from a re-analysis of the deposited data

How the results depend on the processing

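No paired analysis was possible because the labels give the cells no shared culture, day or replicate number, and no test was run. With the mean of log2(CPM + 1) over cells, 17 members were at least 2-fold higher (21.5% of all measured genes), 3 were at least 2-fold lower (5.28%), of which Exoc1 alone was among the 3 of the summed reads, and the median ratio was 0.69; Exoc2 turned to 0.87. The other scalings and filters gave 8 to 13 higher and 2 to 4 lower. Over all genes passing each setting the shares were 15.4% to 23.8% higher and 9.51% to 17.3% lower. Over left-out cells the number higher ran from 8 to 14 (20.9% to 26.2% of all measured genes). The number lower ran from 2 to 5 (13.9% to 15.9%) and the median from 0.26 to 0.48 (0.09 to 0.21). The 5 came without cell 8 and the 0.48 without cell 7 of the group lacking micronuclei. Exoc2 ran from −2.34 to 2.19 and Exoc8 from −1.85 to 1.20, in both cases positive only without cell 7 of that group. With the union of exons as length, the share of Tmed10 in micronucleated cells was 15.4% and that of Tmed1, then the largest, 28.2%, that of Tmed2 in the others 19.2%, and Sar1b made up 51.5% of its pair in cells without micronuclei. Exoc2 and Exoc8 took most of their reads from 1 deep cell. The cause was not tested.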
